A study of Homo sapiens with 12 samples.

Results

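The BCL2 family sets whether a stressed cell keeps its mitochondria intact or opens them and dies. Survival proteins of the family bind and hold their partners in check, the effectors BAX and BAK1 form pores in the outer mitochondrial membrane once they are activated, and BH3-only proteins carry a death signal by blocking the survival proteins or by activating the effectors directly. The pore releases cytochrome c, which starts the caspase cascade. Melanoma cells are known for high BCL2A1 (also named BFL1), a survival gene that NF-kappaB and the melanocyte factor MITF switch on, and interferon gamma (IFNγ) is a cytokine of T cells that acts through JAK kinases.

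The 10 genes described here were the rows of the deposited expression table with the symbols BCL2, BCL2L1, BCL2L2, BCL2A1, BAX, BAK1, BCL2L11, BBC3, BID and BAD, out of 4918 genes analysed, and all 10 were present. They comprised 4 survival genes, 2 effectors and 4 BH3-only genes. RNA came from 12 samples of A375, an established human melanoma line, in 4 groups of 3 samples, all taken at 24 h. The groups were control cells, whose treatment label was "none", cells given SB-3CT, a small-molecule inhibitor of the gelatinases MMP2 and MMP9, cells given IFNγ, and cells given the inhibitor together with the cytokine. Whether the control cells received vehicle was not clear from the labels, and no label said that the 3 samples of a group were separate cultures, so p-values measure only the spread between these samples. The 4 groups give 4 comparisons of a pair of groups, and they share samples: SB-3CT and IFNγ were each set against the same controls, and SB-3CT with IFNγ was set against both.

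Levels are given as FPKM, a unit that divides the fragments of a gene by its length and by the mapped fragments of the sample, which allows a comparison between genes of different length. The deposited values were log2(FPKM + 1), changes are differences on that scale, and this scale understates changes of genes near or under 1 FPKM. A change is called when its limma p-value, adjusted by the Benjamini-Hochberg method over all 4918 genes, is under 0.05. The labels of the IFNγ samples were checked with CXCL10, a chemokine gene induced by IFNγ, which was at 0 to 0.050 FPKM in the 6 samples without IFNγ and at 78.7 to 122 FPKM in the 6 with it. All 6 listed genes of the melanoma and neural crest lineage were measured, 5 of them at a mean of at least 1 FPKM, while DCT, a pigment enzyme, was at 0.0260 to 0.384 FPKM. The summed level of this list was 69.5 to 74.1 FPKM in control cells and 55.6 to 60.8 with SB-3CT. It was 52.9 to 54.1 with IFNγ and 43.1 to 46.5 with both. CSPG4 was the largest part of the sum, at means of 48.5 FPKM in control cells and 27.7 with both. FABP7 and CDH19 were also lower with both, whereas APOE was higher, at means of 5.02 in control cells and 6.13 with both. The part of this list in the results below was not tested. In bulk RNA, fewer cells of a kind and less RNA per cell cannot be told apart. The measured markers of T cells, B cells, myeloid, epithelial, endothelial and fibroblast cells each summed to under 1 FPKM in every sample. Absolute depth is unknown, and depth relative to the control mean, read from the smallest steps of low values, was 87.0% to 150.2% over the samples.

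The promoters of the 3 members that rose with IFNγ are printed to show what lies before their starts. The sequences are the 250 bases before the start of each gene from RefSeq (GRCh38.p14), read 5′ to 3′ on the gene's strand, and 9 of the 10 members had one, BCL2L2 being the exception. Each was searched on both strands for the GAS motif (TTCNNNGAA), the interferon-stimulated response element ISRE (GAAANNGAAA), the ATF4/CHOP element (TGATGNAA), an NF-kappaB site and a p53 half-site, and capitals mark the matches. BCL2A1 lies at chr15:79971197-79971446, BAK1 at chr6:33580277-33580526 and BBC3 at chr19:47232668-47232917, all on the minus strand.
BCL2A1: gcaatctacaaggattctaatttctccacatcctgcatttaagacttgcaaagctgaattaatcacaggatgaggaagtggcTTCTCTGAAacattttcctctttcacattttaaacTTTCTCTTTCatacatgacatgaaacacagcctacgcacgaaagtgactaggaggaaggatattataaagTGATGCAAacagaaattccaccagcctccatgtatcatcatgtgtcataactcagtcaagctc
BAK1: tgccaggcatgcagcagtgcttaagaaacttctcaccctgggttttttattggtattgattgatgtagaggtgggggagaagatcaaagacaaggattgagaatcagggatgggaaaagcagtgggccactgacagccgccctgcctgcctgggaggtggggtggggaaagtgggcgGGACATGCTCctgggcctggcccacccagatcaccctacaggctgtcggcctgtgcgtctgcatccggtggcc
BBC3: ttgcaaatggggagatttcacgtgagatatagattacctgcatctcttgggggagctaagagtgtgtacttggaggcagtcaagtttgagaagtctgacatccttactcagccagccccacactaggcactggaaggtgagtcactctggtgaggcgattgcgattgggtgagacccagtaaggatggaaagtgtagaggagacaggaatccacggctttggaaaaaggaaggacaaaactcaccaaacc

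The BCL2A1 window held a GAS match, TTCTCTGAA, 168 to 160 bases before the start, an ISRE match read on the opposite strand, TTTCTCTTTC, at 133 to 124 bases, and an ATF4/CHOP match, TGATGCAA, at 63 to 56 bases. The BAK1 window held a p53 half-site, GGACATGCTC, at 73 to 64 bases before the start. The BBC3 window, and those of BCL2, BCL2L1, BAX, BCL2L11, BID and BAD, held no match to the 5 motifs. Among 35116 promoters of the same length, 6.57% held the GAS motif, 3.02% the ISRE, 3.14% the ATF4/CHOP element, 5.21% the NF-kappaB site and 5.57% the p53 half-site. A match is a description of the letters, and factor binding was not measured.

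All 10 genes were above 0 in all 12 samples, but their levels spanned a wide range. BAX was the most abundant, with a mean of 414 FPKM over the 12 samples, above 99.0% of all genes analysed. BAD followed with 74.1 FPKM, and BAK1 (34.6), BCL2L1 (31.1), BBC3 (27.5) and BID (24.6) formed a middle group. BCL2L2 had 11.8 FPKM, BCL2A1 4.34, BCL2L11 1.21 and BCL2 0.767, so BCL2, the founding survival gene of the family, was the lowest member and the only member with a mean under 1 FPKM. In the control cells, neighbours in this order overlapped between BAK1 and BID, BBC3 and BCL2L2, BCL2L11 and BCL2, and BCL2 and BCL2A1, and the other neighbours did not. Of the 4 survival genes among the members, BCL2L1, which encodes BCL-XL, had the highest level in every group.

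The order changed with IFNγ. BAK1, which ranked below BCL2L1 in control and SB-3CT cells, ranked above it in both IFNγ groups. BCL2A1 was the lowest of the 10 in control cells and ranked above BCL2L11 and BCL2 in both IFNγ groups, where its samples overlapped with neither neighbour.

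**Figure D1:**
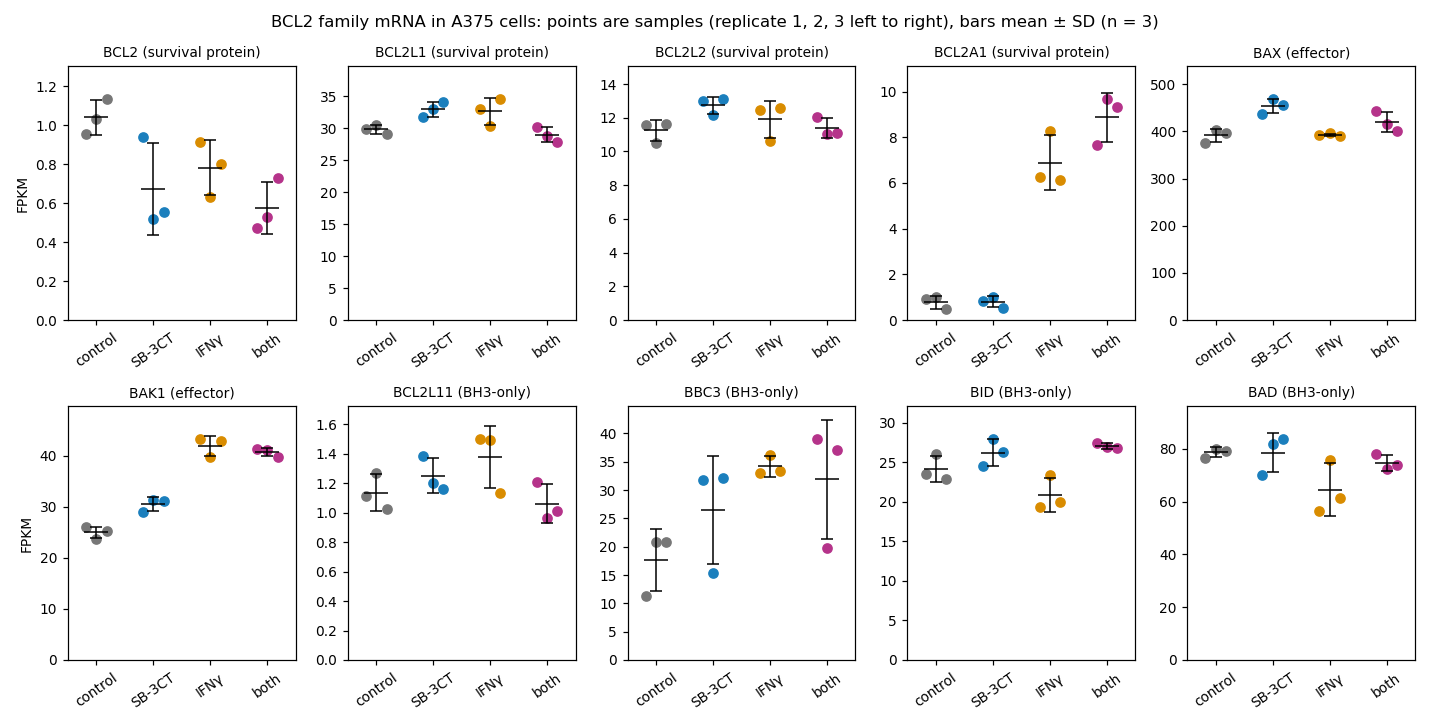
FPKM of each of the 10 genes (vertical axes, each from 0) in the 4 groups, with 3 samples a group as points and the mean ± SD as bars. BCL2A1 lies between 0.463 and 1.02 FPKM without IFNγ and between 6.11 and 9.65 with it, BAK1 rises in steps, and BBC3 has a low sample in 3 of the 4 groups.

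Among the survival genes, BCL2A1 carried the largest change of the family. BCL2A1 (chr15:80253234-80263538 in hg19, minus strand, 2 exons) encodes a short survival protein that binds BIM, BID and PUMA. Its level was 0.900, 0.990 and 0.463 FPKM in control cells and 0.830, 1.02 and 0.548 with SB-3CT. With IFNγ it was 6.28, 8.28 and 6.11 FPKM, and with SB-3CT and IFNγ it was 7.64, 9.65 and 9.31. The samples with IFNγ lay far above those without it, and within each of these sets the SB-3CT samples overlapped with the others. IFNγ raised BCL2A1 by 2.15 ± 0.16 on the log2 scale (SE, 3 against 3, limma adjusted p = 0.000456), 8.79 times in mean FPKM. In the presence of SB-3CT the rise was 2.46 ± 0.13 (limma adjusted p = 0.000132), 11.1 times in mean FPKM. Both calls held in all 14 alternatives tried for each comparison, with changes of 2.01 to 3.03 and 2.28 to 3.35. SB-3CT added to IFNγ gave a difference of 0.33 (95% interval 0.03 to 0.63, limma adjusted p = 0.0840), which did not pass. That difference was 0.56 under median-ratio scaling and 0.58 under quantile normalization, both passing, and 0.08 with the trend with transcript length removed.

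BCL2L1 (chr20:30252255-30311792, minus strand, 3 exons) moved little. It was at 29.9, 30.5 and 29.0 FPKM in control cells, 31.7, 33.0 and 34.0 under SB-3CT, 33.0, 30.3 and 34.5 under IFNγ, and 30.2, 28.7 and 27.9 under both. SB-3CT samples lay above the controls without IFNγ and below the IFNγ samples with it. The change with SB-3CT was 0.14 (95% interval 0.04 to 0.24, limma adjusted p = 0.0816) alone and -0.17 (95% interval -0.31 to -0.02, limma adjusted p = 0.0766) under IFNγ, and neither passed. SB-3CT with IFNγ was lower than SB-3CT alone by a called change of -0.18 ± 0.04 (limma adjusted p = 0.0221). This call rested on the scaling: under median-ratio scaling the change was 0.08 (adjusted p = 0.399), under quantile normalization -0.04 (adjusted p = 0.552), and the median of the genes at a mean of at least 1 FPKM moved by -0.21 in the same comparison. Leaving out replicate 2 or 3 of either group also ended it, at adjusted p-values of 0.0603 to 0.0711.

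BCL2L2 and BCL2 did not pass in any comparison. BCL2L2 (chr14:23767999-23780960, plus strand), which encodes the survival protein BCL-w, was at 11.6, 10.5 and 11.7 FPKM in control cells, 12.97, 12.2 and 13.1 under SB-3CT, 12.5, 10.6 and 12.6 under IFNγ, and 12.1, 11.03 and 11.1 under both. The SB-3CT samples lay above the controls without overlap, at a change of 0.17 (95% interval 0.02 to 0.31, limma adjusted p = 0.113). Its locus overlaps BCL2L2-PABPN1, a readthrough transcript on the same strand listed at 2.28 to 4.50 FPKM, and how fragments were split between them was not stated. BCL2 (chr18:60790579-60987361, minus strand, 3 exons) was at 0.956, 1.03 and 1.13 FPKM in control cells, 0.942, 0.519 and 0.555 under SB-3CT, 0.912, 0.633 and 0.800 under IFNγ, and 0.471, 0.527 and 0.728 under both. Every treated sample was below every control sample, yet the changes of -0.30 with SB-3CT (limma adjusted p = 0.101) and -0.20 with IFNγ (limma adjusted p = 0.115) did not pass. Without SB-3CT replicate 1, the highest of its group, the change with SB-3CT passed (adjusted p = 0.0157).

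The effectors behaved differently from each other. BAK1 (chr6:33540324-33548070, minus strand, 6 exons) was at 26.0, 23.8 and 25.3 FPKM in control cells, 29.1, 31.4 and 31.2 under SB-3CT, 43.3, 39.7 and 42.9 under IFNγ, and 41.3, 41.3 and 39.8 under both. The control, SB-3CT and IFNγ samples did not overlap, and the samples with both agents lay among those with IFNγ. IFNγ raised BAK1 by 0.72 ± 0.05 (limma adjusted p = 0.000456), 1.68 times in mean FPKM, and by 0.40 ± 0.04 in the presence of SB-3CT (limma adjusted p = 0.00119), 1.33 times. These calls held in all 14 alternatives of each comparison, at 0.69 to 0.77 and 0.37 to 0.66. SB-3CT alone raised BAK1 by 0.28 ± 0.05 (limma adjusted p = 0.0224), 1.22 times in mean FPKM. Under IFNγ its difference was -0.04 (95% interval -0.16 to 0.08, limma adjusted p = 0.610), which became 0.21 with a passing adjusted p of 0.00794 under median-ratio scaling. The GGNBP1 pseudogene overlaps BAK1 on the opposite strand, and whether the counting used strand was not stated.

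BAX (chr19:49458072-49465055, plus strand, 6 exons) was at 376, 403 and 396 FPKM in control cells, 438, 468 and 456 under SB-3CT, 391.5, 396 and 390 under IFNγ, and 444, 415 and 401 under both. The SB-3CT samples stood above the controls, and the IFNγ samples lay within the range of the controls. SB-3CT alone raised BAX by 0.21 ± 0.05 (limma adjusted p = 0.0372), 1.16 times in mean FPKM. With IFNγ the difference from control was 0.00 (95% interval -0.11 to 0.11, limma adjusted p = 0.976). In the presence of SB-3CT the change with IFNγ was -0.11 (95% interval -0.24 to 0.02, limma adjusted p = 0.140). That value ran from -0.32 to 0.15 over 14 alternatives and passed in 2 of them. Adding SB-3CT to IFNγ gave 0.10 (95% interval -0.04 to 0.23, limma adjusted p = 0.246), a value that ran from -0.17 to 0.35 over the scalings. The rises of BAX and BAK1 with SB-3CT alone were thin: leaving out a sample ended both calls in 5 of the 6 ways, at adjusted p-values of 0.0588 to 0.123, and both remained called only without SB-3CT replicate 1.

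Of the BH3-only genes, BID (chr22:18216904-18257536, minus strand, 6 exons) responded to SB-3CT under IFNγ. BID encodes a protein that caspase-8 cleaves, which links death receptors to mitochondria. It was at 23.6, 26.1 and 22.9 FPKM in control cells, 24.5, 27.9 and 26.2 under SB-3CT, 19.4, 23.4 and 20.0 under IFNγ, and 27.4, 26.9 and 26.7 under both. Every sample with both agents was above every IFNγ sample. SB-3CT raised BID under IFNγ by 0.36 ± 0.07 (limma adjusted p = 0.00871), 1.29 times in mean FPKM. The call held in all 14 alternatives, with changes of 0.31 to 0.61 and adjusted p-values of 0.00144 to 0.0480, and it was 0.49 with the length trend removed. Its change with SB-3CT alone was 0.11 (95% interval -0.04 to 0.27, limma adjusted p = 0.308). The test of the difference between these changes gave 0.25 (95% interval 0.02 to 0.47, limma adjusted p = 0.110) and did not pass. SB-3CT with IFNγ differed from SB-3CT alone by 0.04 (95% interval -0.08 to 0.17), and IFNγ differed from control by -0.20 (95% interval -0.41 to 0.00, limma adjusted p = 0.153).

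BBC3 (chr19:47724079-47736023, minus strand, 4 exons) encodes PUMA, a BH3-only protein known as a target of p53. It was at 11.3, 20.8 and 20.8 FPKM in control cells, 31.8, 15.4 and 32.1 under SB-3CT, 33.0, 36.2 and 33.3 under IFNγ, and 38.96, 19.8 and 36.995 under both. The IFNγ samples lay above all controls, and in each of the other groups a library stood apart. Control replicate 1 was at 54.1% of the mean of the others in its group, SB-3CT replicate 2 at 48.2% and SB-3CT+IFNγ replicate 2 at 52.2%, whereas the lowest IFNγ sample was at 94.8%. The within-group SD of BBC3, 0.46 on the log2 scale, was above that of 99.4% of 3177 genes with a mean of at least 1 FPKM. IFNγ raised BBC3 by 0.96 ± 0.23 (limma adjusted p = 0.0310), 1.94 times in mean FPKM. Without control replicate 1 the rise was 0.69 (adjusted p = 0.00447), and leaving out any other sample gave 0.92 to 1.10 with adjusted p-values of 0.0523 to 0.0930. SB-3CT alone gave 0.53 (95% interval -0.23 to 1.3, limma adjusted p = 0.321), and 0.87 (adjusted p = 0.125) without SB-3CT replicate 2. SB-3CT under IFNγ gave -0.15 (95% interval -0.69 to 0.38), and 0.15 without SB-3CT+IFNγ replicate 2, so its direction turned on that library.

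BAD (chr11:64037302-64052176, minus strand, 4 exons), whose protein is held inactive when AKT phosphorylates it, was at 76.6, 80.1 and 79.3 FPKM in control cells, 70.1, 81.8 and 83.6 under SB-3CT, 56.5, 75.9 and 61.4 under IFNγ, and 78.2, 72.4 and 73.7 under both. The IFNγ samples were below the controls without overlap, but IFNγ replicate 2 was close to them. The change was -0.29 (95% interval -0.55 to -0.03, limma adjusted p = 0.110), and without IFNγ replicate 2 it was -0.41 and passed (adjusted p = 0.00852). GPR137, a protein-coding gene, overlaps BAD on the opposite strand. BCL2L11 (chr2:111876955-111926021, plus strand, 4 exons), which encodes BIM, was between 0.961 and 1.498 FPKM in the 12 samples. It did not pass in any comparison, with changes of -0.20 to 0.15.

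Counted over the family, IFNγ raised 3 of 10 members, BCL2A1, BAK1 and BBC3, and lowered 0. Across all genes 19.5% were called in this comparison, 8.46% higher and 11% lower (416 and 542 genes, and 596 and 500 under median-ratio scaling), and 5 members had an unadjusted p under 0.05. The groups did not overlap for 3 higher and 2 lower members, beside 15% and 22% of all genes. Without IFNγ replicate 2, BBC3 did not pass, BCL2L1 (0.17, adjusted p = 0.0438) passed as higher, and BID (-0.28, adjusted p = 0.0424) and BAD passed as lower. The members' median change was 0.10, beside -0.02 for all genes and -0.04 for the 3177 genes with a mean of at least 1 FPKM. A fit to those 3177 genes alone called 432 higher and 613 lower. In the presence of SB-3CT, IFNγ went with 2 higher members (BCL2A1 and BAK1) and 1 lower (BCL2L1). The medians were -0.07 for the members, -0.11 for all genes and -0.21 for the 3177 genes. A fit to the 3177 genes alone called 361 higher and 1609 lower. There 40.5% of all genes were called, 7.85% higher and 32.7% lower (386 and 1608 genes, and 675 and 504 under median-ratio scaling), and 2 higher and 2 lower members did not overlap, beside 9.84% and 41.9% of all genes.

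SB-3CT alone raised 2 of 10 members, BAK1 and BAX, and lowered 0, where 12.2% of all genes were called, 5.37% higher and 6.87% lower (264 and 338 genes, and 362 and 318 under median-ratio scaling). These counts fell to 41 to 58 higher and 30 to 38 lower when any sample but SB-3CT replicate 1 was left out, and were 302 and 610 without that sample. The median change was 0.13 for the members, -0.01 for all genes and -0.03 for the 3177 genes with a mean of at least 1 FPKM. A fit to those 3177 genes alone called 366 higher and 535 lower. Without overlap between the groups, 4 members were higher and 1 lower, beside 14.2% and 19.7% of all genes. SB-3CT added to IFNγ raised 1 of 10 members, BID, and lowered 0, where 37.9% of all genes were called, 6.41% higher and 31.5% lower. The groups did not overlap for 2 higher members and 1 lower, beside 9.35% and 39.6% of all genes. The member median was -0.05, beside -0.09 for all genes and -0.20 for the 3177 genes. A fit to the 3177 genes alone called 348 higher and 1510 lower. The 3 + 3 design cannot give an exact permutation p under 0.1 for a lone gene.

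**Figure D2:**
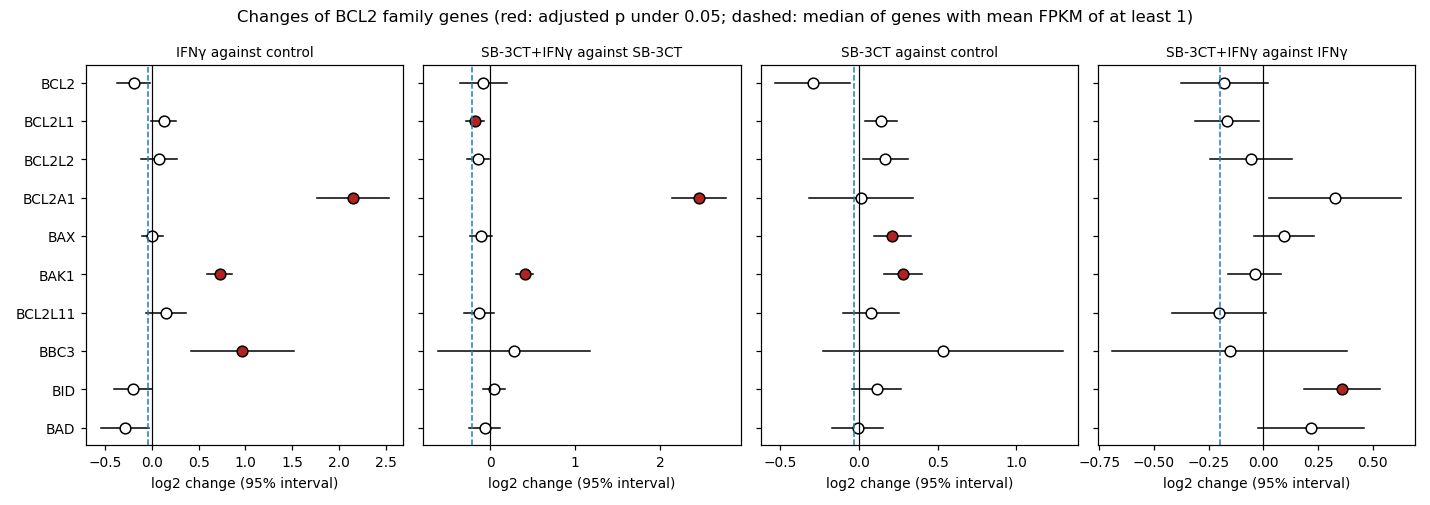
Log2 change of each gene with its 95% interval (horizontal axes) in the 4 comparisons, filled red where the limma adjusted p was under 0.05, with the median change of the 3177 genes at a mean of at least 1 FPKM as a dashed line. The BCL2A1 points at 2.15 and 2.46 stand apart from the rest, and in the comparison of SB-3CT with IFNγ against IFNγ only BID is red while the dashed line lies at -0.20.

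Whether SB-3CT acted differently with IFNγ was tested as the difference between its changes with and without IFNγ over all 12 samples. It passed for BAK1, at -0.32 ± 0.07 (limma adjusted p = 0.0111), and for BCL2L1, at -0.30 ± 0.07 (limma adjusted p = 0.0165), both negative, beside 22.3% of all genes called, 4.74% higher and 17.6% lower (233 and 866 genes, and 384 and 257 under median-ratio scaling). The remaining 8 members did not pass. The median over the 3177 genes was -0.19 in the same test, so that BAK1 lay 0.13 and BCL2L1 0.11 below it. Under median-ratio scaling the values were -0.11 (adjusted p = 0.377) for BAK1 and -0.10 (adjusted p = 0.471) for BCL2L1. Under quantile normalization BAK1 passed, at -0.22 (adjusted p = 0.0419), and BCL2L1 did not, at -0.17 (adjusted p = 0.158). With the length trend removed they were -0.18 (adjusted p = 0.0923) and -0.12 (adjusted p = 0.371), and BAX passed instead, at -0.36 (adjusted p = 0.0107). Both calls held when any of the 12 samples was left out. Without IFNγ replicate 2, BID (0.33, adjusted p = 0.0173) and BAD (0.35, adjusted p = 0.0238) also passed as higher and BCL2L2 (-0.29, adjusted p = 0.0243) as lower.

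The comparison of SB-3CT with IFNγ against IFNγ, like that against SB-3CT alone, depended on how samples were put on a scale. The 3177 genes with a mean of at least 1 FPKM had a median change of -0.20 in it, which median-ratio scaling took to 0.02. All genes split into 315 higher and 1547 lower as deposited, and into 811 higher and 760 lower under median-ratio scaling. Relative to the median, BID was 0.56 higher, BCL2A1 0.53, BAD 0.42 and BAX 0.29, while BCL2 (0.02) and BCL2L1 (0.03) lay close to it. Under median-ratio scaling 5 members rose, BCL2A1, BAX, BAK1, BID and BAD, and 0 fell. The change also ran with transcript length: its median was 0.27 for 221 genes of up to 1000 bases, 0.01 for 645 genes of 1001 to 2000 bases, -0.21 for 1161 genes of 2001 to 4000 bases and -0.39 for 1111 longer genes. The members with the shortest canonical transcripts, BCL2A1 (780 bases), BAX (795) and BAD (929), were among the 4 with a positive change, and those with the longest, BCL2 (6881) and BCL2L11 (5098), had the lowest changes. With the length trend removed, BAX was at -0.17, BAD at 0.01, BCL2A1 at 0.08 and BID at 0.49, and BID and BCL2L2 (0.26) passed. BID thus passed under each scaling run, which did not hold for the other members. In the comparison of SB-3CT with control the median change was -0.03, and the called rise of BAK1 held under each of the scalings, as did that of BAX except under median-ratio scaling (adjusted p = 0.0563). IFNγ replicate 2 also decided calls of SB-3CT added to IFNγ: without it BCL2A1 (0.45, adjusted p = 0.0257) and BAD (0.34, adjusted p = 0.00959) passed as higher beside BID, and BCL2L1 (-0.22, adjusted p = 0.0246) passed as lower.

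**Figure D3:**
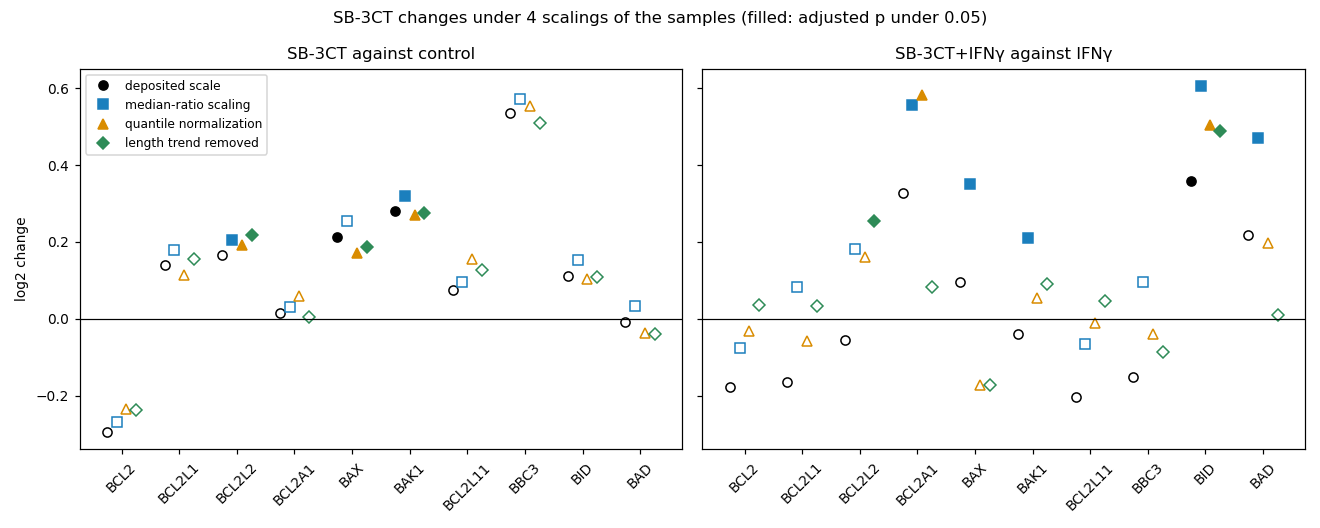
Log2 change with SB-3CT (vertical axis) of the 10 genes without IFNγ (left) and with IFNγ (right) on the deposited scale and under 3 other scalings, filled where the limma adjusted p was under 0.05. In the right panel BID is filled under each scaling at 0.36 to 0.61, whereas BAX runs from -0.17 to 0.35.

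Ratios within a sample are free of any factor that scales the whole sample, but not of the trend with transcript length. BAX (795 bases) is far shorter than BCL2 (6881), while BAK1 (2170) and BCL2L1 (2574) are closer in length. The ratios were not computed with that trend removed. With it removed, SB-3CT added to IFNγ gave -0.17 for BAX and 0.035 for BCL2. The ratio of BAK1 to BCL2L1, an effector to a survival protein that binds it, was 0.840 ± 0.053 (SD, n = 3) in control cells, 0.929 ± 0.020 under SB-3CT, 1.29 ± 0.038 under IFNγ, and 1.41 ± 0.038 under both. The samples of the 4 groups did not overlap in this order. The ratio of BAX to BCL2 was 378 ± 24.4 in control cells, 729 ± 232 under SB-3CT, 514 ± 101 under IFNγ, and 761 ± 197 under both. All treated samples were above the controls, at 429 or more beside at most 393, and the treated groups overlapped with each other. No test was run on the ratios, and this one divides by a gene near 1 FPKM, which widens its spread.

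**Figure D4:**
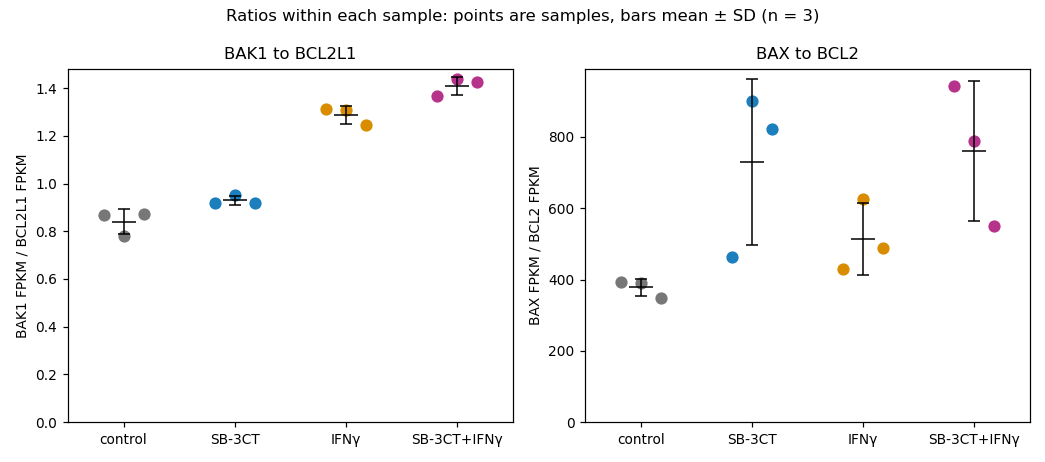
Ratio of FPKM within each sample (vertical axes from 0) for BAK1 to BCL2L1 (left) and BAX to BCL2 (right), with samples as points and mean ± SD as bars (n = 3). The left ratio steps from 0.840 in control cells to 1.41 with both agents without overlap, and the right ratio is higher in every treated sample than in the controls.

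Other genes of the family were followed in a list of 15, of which 11 were measured. BCL2L10, HRK, MCL1 and PMAIP1 were not among the genes analysed, so their levels are unknown here. The symbols analysed ran from A1BG to FAM46B, before HRK, MCL1 and PMAIP1 in the alphabet. IFNγ raised 1 of the 11 and lowered 0, beside 8.46% of all genes higher and 11% lower. The riser was BCL2L13, a mitochondrial family member, at 0.40 ± 0.08 (limma adjusted p = 0.0176), and it was called under the 3 other scalings too. SB-3CT alone lowered 1, the mitophagy receptor gene BNIP3L, at -0.32 (limma adjusted p = 0.0238), and raised 0. The number raised was 1 under median-ratio scaling, 2 under quantile normalization and 1 with the length trend removed. In that comparison 6.87% of all genes were called lower and 5.37% higher. SB-3CT added to IFNγ lowered 4 and raised 0, beside 31.5% of all genes lower and 6.41% higher, so the lowered share was near that of all genes. The 4 were BNIP3L at -0.50, BNIP2 at -0.46, BCL2L13 at -0.33 and BMF at -0.29. BMF encodes a BH3-only protein and was at a mean of 0.389 FPKM with IFNγ and 0.141 with both. Without IFNγ it was at 0.216 FPKM in control cells and 0.422 with SB-3CT, a change of 0.23 that did not pass (limma adjusted p = 0.0601). Its difference of changes was -0.51 (limma adjusted p = 0.00552), called under the 3 other scalings too, beside 22.3% of all genes called. All these BMF means are under 1 FPKM. Under median-ratio scaling the split was 3 higher and 2 lower, with BNIP3L and BMF still called lower and BNIP2 (-0.22) and BCL2L13 (-0.10) not passing. Under quantile normalization and with the length trend removed the split was 0 higher and 1 lower: BMF stayed called, and BNIP3L did not pass, at -0.18 (adjusted p = 0.0665) and -0.22 (adjusted p = 0.0575).

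The step after the mitochondrial pore was followed in 24 genes of caspase activation and its inhibitors, of which 22 were measured. HTRA2 and XIAP lie after FAM46B in the alphabet and were outside the genes analysed. IFNγ raised 4 and lowered 3, or 6 and 2 under median-ratio scaling, beside 8.46% of all genes higher and 11% lower. Among the rises were BIRC3, an inhibitor of apoptosis, at 0.72 ± 0.08 (limma adjusted p = 0.00254), CASP10, an initiator caspase, at 0.63, and CFLAR, which blocks caspase-8, at 0.50, though CFLAR did not pass with the length trend removed (adjusted p = 0.0601). SB-3CT alone raised BIRC5 (survivin) at 0.22, which did not pass under quantile normalization (adjusted p = 0.0636), and lowered 0. In that comparison 5.37% of all genes were called higher and 6.87% lower. SB-3CT added to IFNγ raised 3 and lowered 6, beside 6.41% of all genes higher and 31.5% lower, so the lowered share was near that of all genes. Among those that fell were APAF1, the apoptosome scaffold, at -0.61, and the inhibitors BIRC6 at -0.60 and BIRC2 at -0.51, so both an activator and inhibitors were lower. Under median-ratio scaling 5 rose and 3 fell, and APAF1, BIRC6 and BIRC2 were still called lower. With the length trend removed APAF1 stayed called, at -0.25, whereas BIRC6 (-0.17, adjusted p = 0.142) and BIRC2 (-0.18, adjusted p = 0.0801) did not pass. Among the rises were CYCS, the gene of cytochrome c, at 0.37 ± 0.06 (limma adjusted p = 0.00444), and CRADD, an adaptor of caspase-2, at 0.41 ± 0.08 (limma adjusted p = 0.00658), named here after their values were seen. Both were called under the 3 other scalings, at 0.40 to 0.83 for CYCS and 0.30 to 0.65 for CRADD. These rises started from levels that IFNγ alone had lowered, by -0.35 for CYCS (limma adjusted p = 0.00148) and -0.35 for CRADD (limma adjusted p = 0.0213). The fall of CRADD did not pass under median-ratio scaling (adjusted p = 0.0764). Mean levels in control, IFNγ and both were 64.6, 50.5 and 65.6 FPKM for CYCS and 17.8, 13.8 and 18.6 for CRADD. With both agents they were thus near the control level.

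Partners and regulators of the family proteins were followed in 18 genes, all measured. SB-3CT alone raised 6 and lowered 1, beside 5.37% of all genes higher and 6.87% lower. DDIT3 was at 0.91 ± 0.08 (limma adjusted p = 0.00247), ATF4 at 0.35 and AKT1 at 0.27. DDIT3 encodes CHOP, a stress factor known to act on BCL2L11 and BBC3, and ATF4 is its activator. The mean level of DDIT3 was 18.3 FPKM in control cells, 35.3 under SB-3CT, 19.3 under IFNγ, and 46.3 under both. SB-3CT added to IFNγ raised 3 and lowered 7, beside 6.41% of all genes higher and 31.5% lower, so the lowered share was near that of all genes. DDIT3 was at 1.22 ± 0.05 (limma adjusted p = 0.000232), BAG4 at -0.60 and DYNLL1, a light chain that binds BIM and BMF, at 0.58. Under median-ratio scaling 8 rose and 3 fell, and these 3 genes were called in the same direction. With the length trend removed BAG4 did not pass, at -0.32 (adjusted p = 0.0614). IFNγ raised 2 and lowered 1, beside 8.46% of all genes higher and 11% lower. These were the BCL2 partner BAG1 at -0.42, E2F1 at 0.31 and AKT1 at 0.16, the last not passing with the length trend removed (adjusted p = 0.0731). BBC3 and BCL2L11 did not pass in either SB-3CT comparison. For BBC3 this cannot show that a rise was absent, because its samples were widely spread. Its change was 0.53 ± 0.33 (SE) with SB-3CT alone and -0.15 ± 0.23 under IFNγ. The changes of BCL2L11 were 0.08 ± 0.08 and -0.20 ± 0.09. Whether CHOP acted on either gene was not tested.

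The genes whose pattern was most like a member were taken for BCL2A1 and BBC3, the members with the largest changes, from genes with a mean of at least 1 FPKM. For BCL2A1 these were CASP4 (Pearson r = 0.994, Spearman rho = 0.90), CLEC2B (0.991 and 0.89) and CXCL10 (0.990 and 0.83) over the 12 samples. For BBC3 they were AMH (0.84 and 0.83), CASP10 (0.83 and 0.86) and CHKB (0.77 and 0.53). The 12 points share the 4 groups, so these values describe a shared pattern over groups and carry no p. CASP4 had mean levels of 21.2, 21.6, 60.2 and 70.0 FPKM in control, SB-3CT, IFNγ and SB-3CT with IFNγ, the same order as BCL2A1.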

How the data were processed

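The authors sequenced A375 RNA as 150-base paired-end reads on an Illumina HiSeq machine, aligned the reads to hg19 with HISAT2 2.0.5 and computed FPKM with StringTie 1.3.3 (versions from the submitters' processing notes). The deposited values fit log2(FPKM + 1), and FPKM was recovered from these log2 values. Genes with symbols from A1BG to FAM46B were analysed, 4918 in all, and 0 columns were left unused. The step of taking logarithms, laid out for FPKM, was left out. For each pair of groups, limma (version 3.58.1, run under R 4.3.3) was fitted to the 3 + 3 samples without pairing, its eBayes step using a trended prior variance, and the difference of changes was fitted over all 12 samples. The code was tested on simulated data. All 10 members are named, and in each list up to 4 genes per comparison, those with the largest absolute change among genes with an adjusted p under 0.05, though some of these are not reported here. The members and lists were chosen with earlier results of these data known. The alternatives tried were a minimum mean FPKM of 1, a pseudocount of 0.1, median-ratio scaling, quantile normalization, all 4 groups in a shared fit, a replicate block, no variance trend and leaving out each sample. Removal of the trend with transcript length (98.5% of genes had a length) was added after seeing the data. Positions came from GENCODE release 44 on hg19.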

Additional observations from a re-analysis of the deposited data

Results flagged for a closer look

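Whether the response to SB-3CT depended on IFNγ was tested as an interaction term in limma over all 12 samples. It passed for 2 of 10 members, both negative, beside 22.3% of all genes called, 4.74% higher and 17.6% lower. BAK1 differed by -0.32 on the log2 scale (adjusted p = 0.0111): its change with SB-3CT was 0.28 without IFNγ and -0.04 with it. BCL2L1 differed by -0.30 (adjusted p = 0.0165): its change was 0.14 without IFNγ and -0.17 with it. Neither passed under median-ratio scaling, at -0.11 (adjusted p = 0.377) and -0.10 (adjusted p = 0.471). Under quantile normalization BAK1 passed (adjusted p = 0.0419) and BCL2L1 did not (adjusted p = 0.158). With the length trend removed, neither passed. The median over 3177 genes was -0.19 as deposited.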

How the results depend on the processing

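Of 50 member changes (10 members in 5 comparisons), 14 kept their direction and their side of the threshold in every alternative, among them 5 of the 11 called changes: BCL2A1 and BAK1 in both IFNγ comparisons, and BID for SB-3CT under IFNγ. Of the others called, 1 turned sign, BCL2L1 in SB-3CT+IFNγ against SB-3CT, and 20 of the changes not called passed somewhere. For SB-3CT+IFNγ against IFNγ, 1 member was called higher as deposited, 2 with a mean FPKM of at least 1, 5 under median-ratio scaling, 2 after quantile normalization, 2 once the trend with length was taken out and 1 to 3 when a sample was left out, and 0 were lower, 1 with all 4 groups in a shared fit and 0 to 1 when a sample was left out. Among all genes, 315 were higher as deposited, 811 under median-ratio scaling, 542 after quantile normalization and 467 with the length trend removed. With a mean FPKM of at least 1, 348 of 3177 genes were higher. Lower genes numbered 1547 as deposited and 1695 in the shared fit. For SB-3CT against control, 2 were higher, 0 to 3 when a sample was left out, and 0 lower, 0 to 1 when a sample was left out. Among all genes, 264 were higher and 338 lower. When a sample was left out, 41 to 302 were higher and 30 to 610 lower. For IFNγ against control, 0 were lower, 1 with a mean FPKM of at least 1, 1 with all groups in a shared fit, 1 with the length trend removed and 0 to 2 when a sample was left out. Among all genes, 542 were lower as deposited, 708 in the shared fit and 826 with the length trend removed. With a mean FPKM of at least 1, 613 of 3177 genes were lower. For SB-3CT+IFNγ against SB-3CT, 1 was lower, 0 under median-ratio scaling, 2 with the length trend removed and 0 to 2 when a sample was left out. BCL2L1, the member lower as deposited, did not pass under median-ratio scaling or quantile normalization, and BAX passed in 2 of the 14 alternatives. Among all genes, 1608 were lower as deposited, 504 under median-ratio scaling and 806 with the length trend removed. For the difference of changes, 2 were lower, 0 under median-ratio scaling and 1 with the length trend removed, and 0 were higher, 0 to 2 when a sample was left out. Among all genes, 866 were lower as deposited, 257 under median-ratio scaling and 169 with the length trend removed. Apart from having fewer samples or genes, the causes were not tested.

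Signs turned as follows. Under median-ratio scaling, SB-3CT+IFNγ against IFNγ gave 0.082 for BCL2L1, 0.18 for BCL2L2, 0.21 for BAK1 and 0.096 for BBC3, SB-3CT+IFNγ against SB-3CT gave 0.022 for BCL2, 0.075 for BCL2L1, 0.095 for BCL2L2, 0.15 for BAX, 0.014 for BCL2L11 and 0.19 for BAD, SB-3CT against control gave 0.034 for BAD, and the difference of changes gave 0.098 for BAX. Under quantile normalization, SB-3CT+IFNγ against IFNγ gave 0.16 for BCL2L2, -0.17 for BAX and 0.054 for BAK1, and SB-3CT+IFNγ against SB-3CT gave 0.0026 for BCL2 and 0.0090 for BCL2L2. With the length trend removed, SB-3CT+IFNγ against IFNγ gave 0.035 for BCL2, 0.033 for BCL2L1, 0.26 for BCL2L2, -0.17 for BAX, 0.090 for BAK1 and 0.047 for BCL2L11, SB-3CT+IFNγ against SB-3CT gave 0.041 for BCL2, 0.060 for BCL2L2 and 0.024 for BCL2L11, and the difference of changes gave 0.037 for BCL2L2. When a sample was left out, the changes ran from -0.32 to 0.15 for BBC3 in SB-3CT+IFNγ against IFNγ, from -0.12 to 0.12 for BCL2A1 and from -0.055 to 0.071 for BAD in SB-3CT against control, from -0.026 to 0.025 for BAX in IFNγ against control, and in SB-3CT+IFNγ against SB-3CT from -0.15 to 0.032 for BCL2, from -0.058 to 0.58 for BBC3 and from -0.0023 to 0.087 for BID.

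Over 3177 genes, same-numbered samples did not deviate together (r of -0.39 to 0.17), which cannot exclude pairing by replicate number for single genes. In every group, replicate 2 had the highest BCL2A1 and the lowest BCL2L2. With the replicate block, 0 members were higher for SB-3CT against control (BAX adjusted p = 0.0518, BAK1 adjusted p = 0.0572, limma), 0 were lower for SB-3CT+IFNγ against SB-3CT, and BBC3 passed there (0.28, adjusted p = 0.0277). Since absolute depth is unknown, the precision of BCL2, BCL2L11 and BCL2A1 without IFNγ, all near 1 FPKM, can be judged only from the spread of the samples.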
